A study of Mus musculus with 10 samples.

Results

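The cells described here are mouse astrocytes driven towards glioma by an activated EGF receptor, and the genes are 10 that act at the G1 restriction point of the cell cycle, namely 7 inhibitors of cyclin-dependent kinases (CDKs) and 3 D-type cyclins. They were taken by gene symbol from a matrix of 23230 features, and all 10 were found in it, which are the 4 INK4 genes *Cdkn2a*, *Cdkn2b*, *Cdkn2c* and *Cdkn2d*, the 3 CIP/KIP genes *Cdkn1a*, *Cdkn1b* and *Cdkn1c*, and *Ccnd1*, *Ccnd2* and *Ccnd3*. mRNA was measured by RNAseq in 10 libraries. AstroEGFR* (3 libraries, 1 for each of 3 astrocyte batches) are cortical astrocytes of C57BL/6 pups at postnatal day 5 that lack p16/p19, infected with a retrovirus for the truncated human receptor EGFRvIII and kept in serum. PT (4 libraries) are glioma propagating cells, grown from primary tumours that AstroEGFR* formed in CD1 Nude mice. Their medium held no serum but had added EGF and FGF-2. AstroEGFR* Zfp423 (3 libraries) are the same 3 astrocyte batches given a vector that overexpresses the transcription factor *Zfp423*. Every group thus carries the p16/p19 deletion and the receptor, and all were below passage 10. Of the tumours, PT1 and PT4 were assigned to batch 1, and PT2 and PT3 to batches 2 and 3. This map was taken from a figure of the paper, since the labels do not give it. The step through a tumour and the change of medium came together and cannot be told apart in any comparison with PT.

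D-type cyclins bind and activate CDK4 and CDK6, which phosphorylate the retinoblastoma protein and release E2F transcription factors to start S phase. Growth factor receptors such as EGFR raise their transcription. INK4 proteins bind CDK4 and CDK6 and keep the cyclin out, while CIP/KIP proteins bind whole cyclin-CDK complexes, inhibit CDK2 and can help cyclin D and CDK4 to assemble. In glioma the pathway is commonly disabled by loss of the *Cdkn2a* and *Cdkn2b* locus, and the deletion of p16/p19 in these astrocytes removes products of the first of these genes only.

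Levels are FPKM, fragment counts scaled to transcript length and library size, which allows levels to be set side by side between genes, within the limits that follow. The depth of each library is unknown. FPKM summed to between 361102 and 860068 per library, and small RNAs and histone genes made up 0.316% to 0.69% of this sum in AstroEGFR*1, PT1 and PT4, 4.85% and 6.08% in AstroEGFR*3 and PT3, and 29.6% to 54.8% in the other 5 libraries. *Gapdh* was listed at only 0.0106 to 50.1 FPKM. The vector's own gene, *Zfp423*, was at 4.30, 3.25 and 3.48 FPKM in AstroEGFR* and at 15.7, 9.73 and 105 FPKM in the AstroEGFR* Zfp423 library of the same batch, above it in 3 of 3 pairs. Astrocyte and neural progenitor markers were detected in all groups, but AstroEGFR*2 Zfp423 had summed astrocyte markers of 79.4 FPKM against 333 to 1124 FPKM in the other AstroEGFR* libraries with or without *Zfp423*, with *Olig2* at 0 and *Aldh1l1* at 1.69 FPKM. The 9 microglial markers summed to 1555 FPKM in AstroEGFR*1 Zfp423 and 907 FPKM in AstroEGFR*2 Zfp423, with none of them below 1 FPKM, and to between 1.20 and 36.6 FPKM in the other 8 libraries. In bulk samples, a different mix of cells and a different level per cell cannot be told apart, and this holds for every result below.

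*Cdkn2a*, the gene of the knockout, and *Cdkn1a*, whose PT values lay above those of AstroEGFR*, each have 2 start sites in RefSeq, while the matrix gives 1 value per gene. The 250 bases before each start site are shown for these 2 genes, in the GRCm38.p6 assembly and on the strand of the gene, since the levels below sum over both. Capitals mark GGGCGG on either strand, the GC box bound by Sp1 factors, and ACATGT repeated after a gap of 4 bases, which holds the cores of both half-sites of a p53 response element. The upstream *Cdkn2a* start gives the p19 transcript and the downstream one the p16 transcript.
*Cdkn2a* upstream start, chr4:89294620-89294869, minus strand: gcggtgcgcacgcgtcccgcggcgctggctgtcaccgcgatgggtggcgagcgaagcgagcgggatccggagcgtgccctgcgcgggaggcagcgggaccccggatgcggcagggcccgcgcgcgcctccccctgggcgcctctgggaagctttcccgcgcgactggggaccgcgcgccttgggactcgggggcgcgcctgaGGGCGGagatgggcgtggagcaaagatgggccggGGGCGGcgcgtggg
*Cdkn2a* downstream start, chr4:89282193-89282442, minus strand: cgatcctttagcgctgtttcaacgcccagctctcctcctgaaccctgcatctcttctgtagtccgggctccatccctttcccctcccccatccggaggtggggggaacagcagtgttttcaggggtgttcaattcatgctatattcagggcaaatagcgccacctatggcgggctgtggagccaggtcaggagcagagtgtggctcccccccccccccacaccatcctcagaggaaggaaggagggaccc
*Cdkn1a* upstream start, chr17:29090729-29090978, plus strand: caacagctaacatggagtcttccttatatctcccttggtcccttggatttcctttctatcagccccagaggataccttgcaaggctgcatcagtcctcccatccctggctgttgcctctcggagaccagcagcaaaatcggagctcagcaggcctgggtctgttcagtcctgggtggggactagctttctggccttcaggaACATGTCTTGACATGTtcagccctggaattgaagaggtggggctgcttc
*Cdkn1a* downstream start, chr17:29093519-29093768, plus strand: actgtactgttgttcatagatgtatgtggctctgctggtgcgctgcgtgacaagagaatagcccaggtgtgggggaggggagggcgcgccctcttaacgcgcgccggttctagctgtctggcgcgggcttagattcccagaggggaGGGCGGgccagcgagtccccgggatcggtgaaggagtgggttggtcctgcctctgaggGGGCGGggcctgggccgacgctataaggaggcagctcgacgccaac
The 2 start sites of a gene differ in these windows. The upstream *Cdkn2a* window is 78.4% G and C with 2 GC boxes and the downstream one 60.0% with none, while in *Cdkn1a* the upstream window holds the p53 letters and no GC box and the downstream window 2 GC boxes. GGGCGG stood in 32.7% of all 32851 windows of this length and the p53 letters in 4 of them (0.012%). A match describes the letters and does not show that a factor binds there. Windows were found for 7 of the 10 genes, not for *Cdkn1c*, *Ccnd1* and *Ccnd2*.

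No CDK inhibitor or D-type cyclin passed an adjusted p of 0.05 in any of the 3 comparisons (limma on log2(FPKM + 1), Benjamini-Hochberg over all features tested). *Cdkn1c* had a mean below 1 FPKM in every comparison and was not tested, which left 9 of the 10. Between PT and AstroEGFR*, 0 of 9 were called against 152 of 12261 features (1.24%), of which 39 were higher and 113 lower in PT. With the astrocyte batch as a block 475 features were called, and again 0 of the 9, whose adjusted p by limma ran from 0.0559 (*Cdkn1a*) to 0.832 (*Ccnd1*). At an unadjusted p below 0.05 stood 1 of the 9, *Cdkn1a*, against 13.6% of all features, and 1 of the 9, again *Cdkn1a*, had values that did not overlap between the groups against 14.8%. Between AstroEGFR* Zfp423 and AstroEGFR*, with the batch as a block, 0 of 9 were called and 0% of 12366 features. At an unadjusted p below 0.05 there were 0 of the 9 against 7.38% of features, and 1 of the 9, *Cdkn2d*, did not overlap between groups against 11.5%. Between PT and AstroEGFR* Zfp423, 0 of 9 were called against 0.0161% of 12412 features, which is 2 features (20 with the batch as a block). Here 1 of the 9, *Cdkn1a*, had an unadjusted p below 0.05 against 16% of features, and 2 of the 9, *Cdkn1a* and *Cdkn2a*, did not overlap against 14.5%. The shares of the 9 genes were thus close to those of features in general, and the single values below are given for their size and spread. *Zfp423* itself was not called in any comparison by limma. It differed by -0.98 (SE 0.38, adjusted p = 0.314) in PT against AstroEGFR*. With the vector it differed by 2.52 (SE 0.74, adjusted p = 0.628), and in PT against AstroEGFR* Zfp423 by -3.49 (SE 0.77, adjusted p = 0.173). The absence of a call therefore does not show that a gene was unchanged. The 3 comparisons share libraries.

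**Figure D1:**
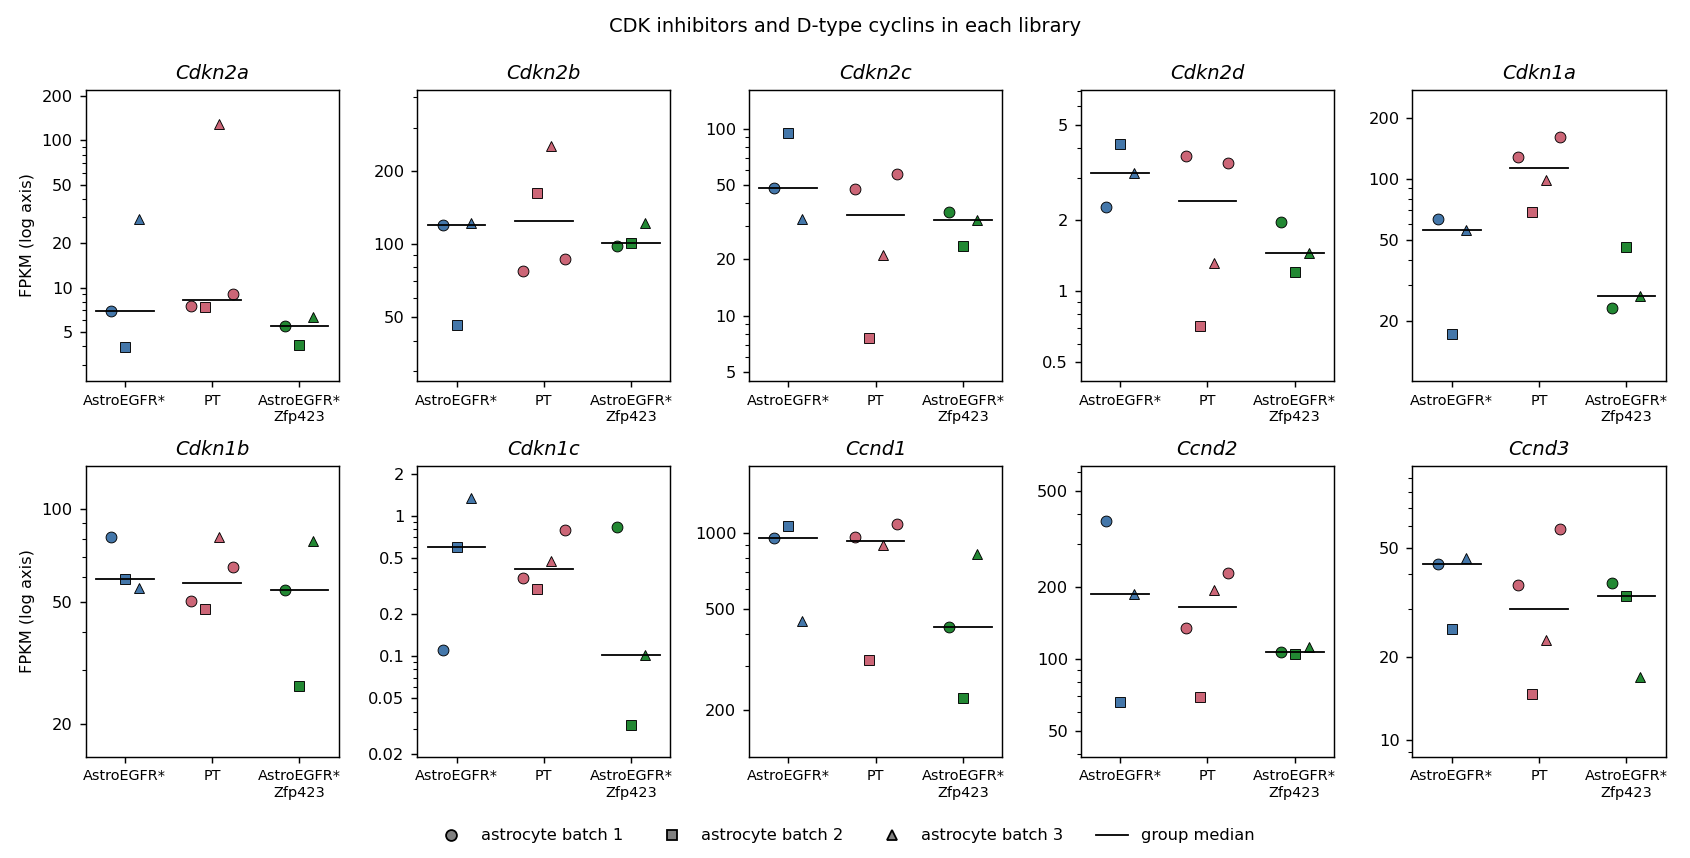
FPKM of each of the 10 genes (log axis, a different range in each panel) in the 3 AstroEGFR*, 4 PT and 3 AstroEGFR* Zfp423 libraries, where each symbol is 1 library, its shape the astrocyte batch and the line the group median. *Cdkn1a* was the only gene whose 4 PT values, from 69.1 to 162 FPKM, all lay above the AstroEGFR* values, from 17.3 to 63.5 FPKM.

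**Figure D2:**
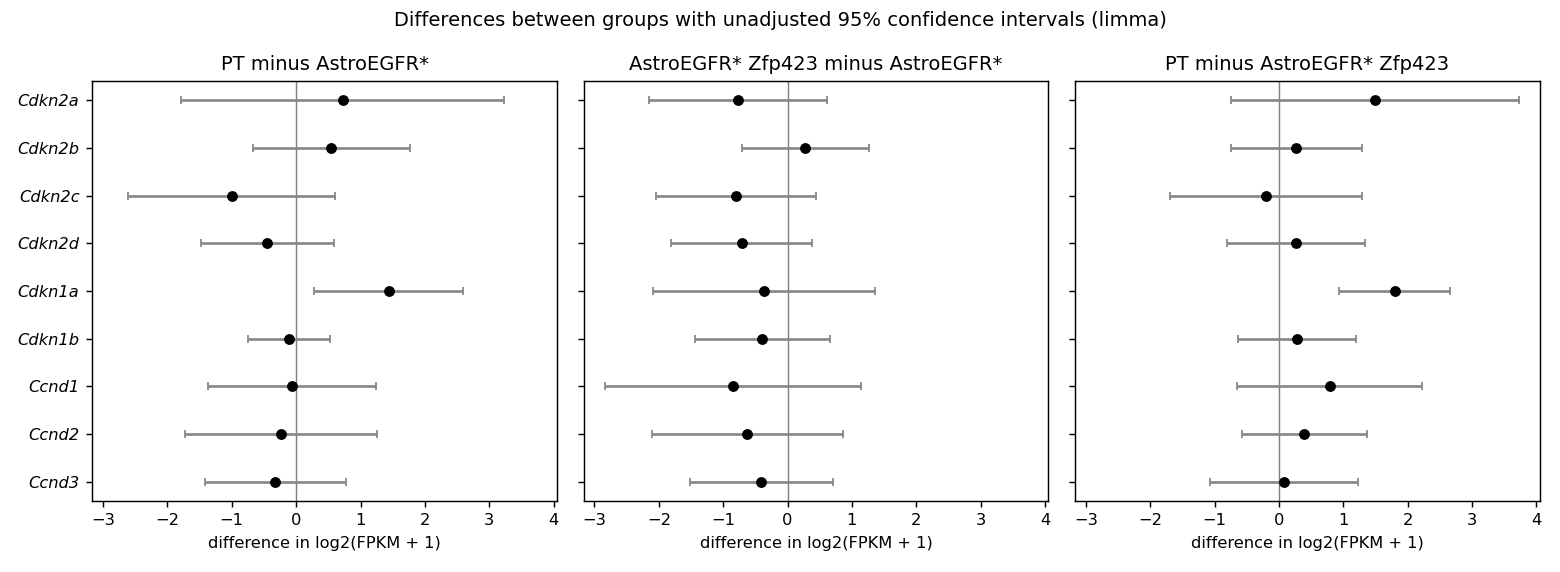
Difference in mean log2(FPKM + 1) between groups for the 9 genes tested, with the 95% confidence interval from limma, not adjusted for the number of features. The interval of *Cdkn1a* lay above 0 in both comparisons with PT, and every other interval held 0.

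*Cdkn2a*, the locus of p16 and p19, is the targeted gene of the knockout and was listed above 0 in all 10 libraries. AstroEGFR*1, 2 and 3 had 6.92, 3.96 and 29.1 FPKM. PT1 to PT4 had 7.48, 7.34, 129.7 and 9.01 FPKM, and AstroEGFR* Zfp423 had 5.46, 4.10 and 6.29 FPKM. Of the 10 values 8 lay between 3.96 and 9.01 FPKM, and the other 2, AstroEGFR*3 and PT3, were both from batch 3, although AstroEGFR*3 Zfp423 of the same batch was at 6.29 FPKM. PT3 held 4.45 times the level of AstroEGFR*3, and AstroEGFR*3 Zfp423 held 0.216 of it. The sources used here do not say which exons the deletion removed, and 1 value per gene does not separate a transcript left by the deletion from an intact one or the p16 from the p19 transcript, so these levels do not check the genotype. PT differed from AstroEGFR* by 0.72 (SE 1.08, adjusted p = 0.841), and by -0.25 without PT3, where AstroEGFR*3, the source of PT3, still counts. Within batches PT1, PT2 and PT4 lay above their own AstroEGFR* by 0.10, 0.75 and 0.34, and with the batch as a block the difference over all 4 was 0.95 (SE 0.37, adjusted p = 0.192 by limma). Against AstroEGFR* Zfp423, all 4 PT values lay above all 3, by 1.49 (SE 0.96, adjusted p = 0.484), and by 0.52 without PT3.

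*Cdkn2b*, which encodes p15, lies next to *Cdkn2a* and was the most abundant inhibitor of its family in 9 of 10 libraries. Its values were 119.8, 46.5 and 121 FPKM in AstroEGFR*, 77.3, 162, 253 and 86.8 FPKM in PT, and 98.3, 101 and 122 FPKM in AstroEGFR* Zfp423. PT3, the library with the highest *Cdkn2a*, was highest here as well, AstroEGFR*2 was lowest, and the groups overlapped. PT differed from AstroEGFR* by 0.55 (SE 0.53, adjusted p = 0.725), with PT1 and PT4 below their own AstroEGFR* (0.646 and 0.725 of it) and PT2 and PT3 above theirs (3.49-fold and 2.09-fold), and without AstroEGFR*2 the difference was 0.097. The 2 neighbours did not move as a unit, since *Cdkn2a* over *Cdkn2b* was 0.0407 to 0.104 in 8 libraries, 0.241 in AstroEGFR*3 and 0.513 in PT3.

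*Cdkn2c* encodes p18, an INK4 inhibitor whose gene is a target of E2F, and of the 9 genes tested it had the widest range after *Cdkn2a*, both in FPKM ratio and on the log2(FPKM + 1) scale. It was at 48.4, 94.9 and 32.7 FPKM in AstroEGFR*, 47.6, 7.65, 21.2 and 57.03 FPKM in PT, and 36.0, 23.6 and 32.7 FPKM in AstroEGFR* Zfp423. The values of the groups overlapped, and the whole range was set within batch 2, by AstroEGFR*2 at the top and PT2 at the bottom. PT differed from AstroEGFR* by -0.999 (SE 0.69, adjusted p = 0.598) and AstroEGFR* Zfp423 from AstroEGFR* by -0.79 (SE 0.46, adjusted p = 0.674), where batch 2 contributed -1.96, batch 1 -0.42 and batch 3 0.00. The difference of PT was -0.45 without PT2 and -0.59 without AstroEGFR*2. *Cdkn2d*, which encodes p19INK4d, a protein unrelated to the p19 of the *Cdkn2a* locus, was the lowest of the genes tested. It was at 2.27, 4.16 and 3.15 FPKM in AstroEGFR*, 3.70, 0.710, 1.31 and 3.48 FPKM in PT, and 1.96, 1.21 and 1.45 FPKM in AstroEGFR* Zfp423. All 3 AstroEGFR* Zfp423 values lay below all 3 AstroEGFR* values and each lay below its own batch. Yet the mean difference of -0.71 (SE 0.40) did not pass the test (adjusted p = 0.67 by limma). The exact permutation p of 0.1 is the smallest that 3 against 3 libraries can give, but it ignores the pairs. An exact sign change within the 3 pairs gave p = 0.25. Microglial markers were high in 2 of these 3 libraries, with *Cdkn2d* at 1.96 and 1.21 FPKM, and near 0 in the third, with 1.45 FPKM, and their part in the difference was not tested.

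Of the CIP/KIP genes, *Cdkn1a*, which encodes p21 and is a classic target of p53, did not overlap between PT and AstroEGFR*, as was the case for 14.8% of all features. It was at 63.5, 17.3 and 56.0 FPKM in AstroEGFR*1, 2 and 3, at 128, 69.1, 99.2 and 162 FPKM in PT1, 2, 3 and 4, and at 23.3, 46.2 and 26.5 FPKM in AstroEGFR* Zfp423 of batches 1, 2 and 3. All 4 PT libraries lay above all 6 astrocyte libraries, while both astrocyte groups overlapped. PT exceeded AstroEGFR* by 1.44 on the log2(FPKM + 1) scale (SE 0.50, 95% interval 0.28 to 2.60, adjusted p = 0.268 by limma), and an exact two-sided permutation test of 4 against 3 libraries gave p = 0.0571, where the smallest it can give is 0.0286. With the astrocyte batch as a block the difference was 1.29 and its adjusted p 0.0559. Without AstroEGFR*2, the lowest library, the difference without the block was 0.86 (adjusted p = 0.467 by limma). Within its own batch, each PT library was higher than the AstroEGFR* it came from, 2.01-fold in PT1, 3.99-fold in PT2, 1.77-fold in PT3 and 2.55-fold in PT4. The 8 fibroblast or meningeal markers moved the other way, with a sum of 88.4 to 728 FPKM in PT against 642 to 6213 FPKM in AstroEGFR*, and their part in this or any other difference of PT was not tested. PT exceeded AstroEGFR* Zfp423 by 1.80 (SE 0.37, 95% interval 0.94 to 2.66, adjusted p = 0.164 by limma, exact permutation p = 0.0286). Without PT2, the PT library with the lowest *Cdkn1a*, this difference was 2.02 and passed the threshold, at an adjusted p of 0.0466, while without any other single library the adjusted p was 0.0969 to 0.472. Of the 3 AstroEGFR* Zfp423 libraries 2 carry the microglial markers, and without both the difference was 2.002 (adjusted p = 0.873 by limma). Between AstroEGFR* Zfp423 and AstroEGFR* the difference went both ways. *Cdkn1a* was at 0.368 and 0.473 of the AstroEGFR* level in batches 1 and 3 and at 2.67-fold of it in batch 2. The mean difference was -0.36 (SE 0.63, adjusted p = 0.887 by limma), or -1.23 without batch 2.

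*Cdkn1b*, which encodes p27, a CDK2 inhibitor regulated largely through the stability of its protein, had the narrowest range of the 9 genes tested, 3.04-fold in FPKM from the lowest to the highest library. AstroEGFR* had 81.2, 59.2 and 55.2 FPKM, PT 50.1, 47.4, 80.8 and 64.6 FPKM, and AstroEGFR* Zfp423 54.5, 26.7 and 78.4 FPKM. The groups overlapped throughout, and the lowest of all 10 values was that of AstroEGFR*2 Zfp423, the library with few astrocyte markers. PT differed from AstroEGFR* by -0.11 (95% interval -0.75 to 0.53, adjusted p = 0.91). Set against each other, *Cdkn1a* over *Cdkn1b* was 0.782, 0.292 and 1.01 in AstroEGFR*, 2.55, 1.46, 1.23 and 2.50 in PT, and 0.428, 1.73 and 0.338 in AstroEGFR* Zfp423. PT was thus the one group in which *Cdkn1a* was the more abundant in every library. *Cdkn1c*, which encodes p57 and is an imprinted gene, was listed at 0.0323 to 1.34 FPKM, with a mean below 1 FPKM in each group, and is not compared further.

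**Figure D3:**
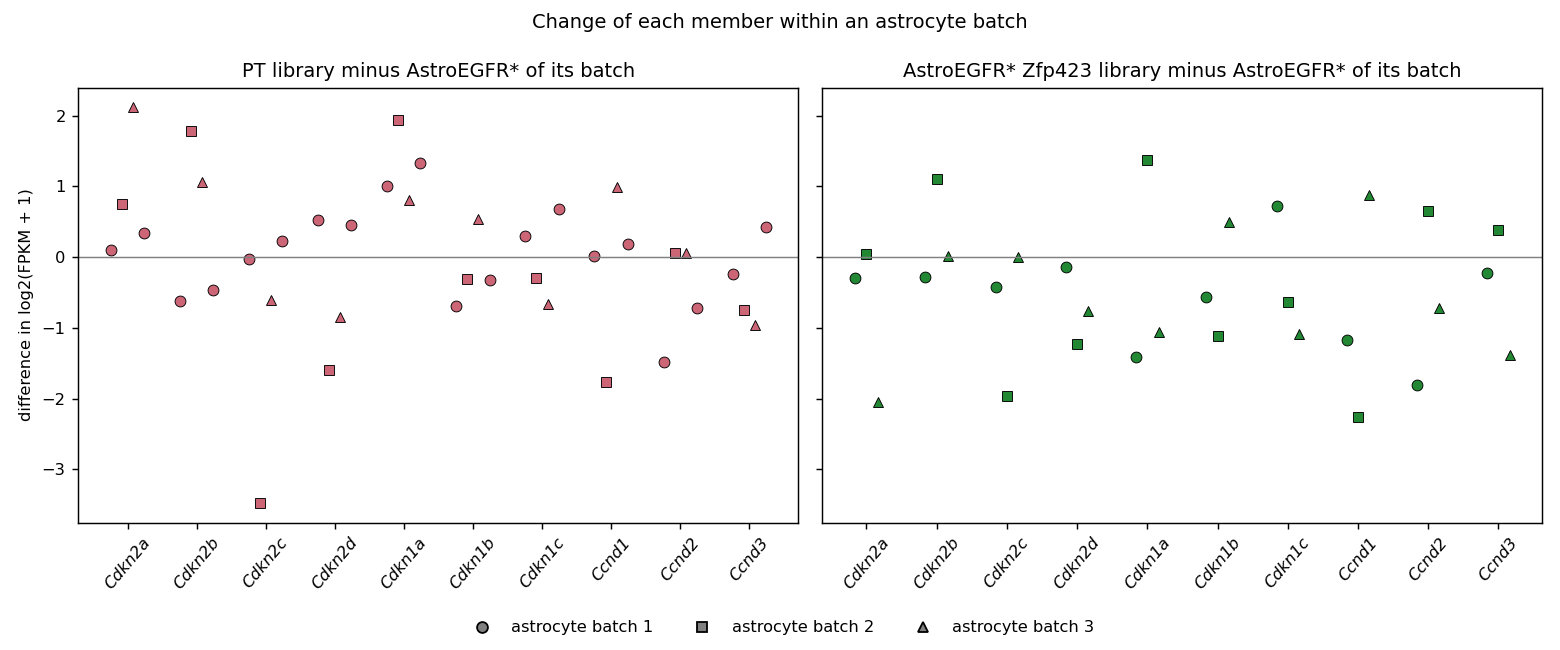
Difference in log2(FPKM + 1) of each PT library (left) and each AstroEGFR* Zfp423 library (right) from the AstroEGFR* library of the same astrocyte batch, where each symbol is 1 library and its shape the batch. In PT only *Cdkn1a* and *Cdkn2a* lay above 0 in 4 of 4 libraries, with *Cdkn2a* at 0.10 in PT1. With *Zfp423* only *Cdkn2c* and *Cdkn2d* lay below 0 in 3 of 3, with *Cdkn2c* at 0.00 in batch 3. PT1 and PT4 are both set against AstroEGFR*1, so the 4 differences are not independent. The share of all features with 1 sign throughout was not counted.

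Among the D-type cyclins *Ccnd1*, a cyclin induced by growth factors, was first in every library. It was at 955, 1069 and 449.6 FPKM in AstroEGFR*, 968, 315, 893 and 1085 FPKM in PT, and 425, 222 and 825 FPKM in AstroEGFR* Zfp423. It made up 61.6% to 92.1% of the summed FPKM of the 3 cyclins and was the highest of the 10 genes in all 10 libraries, with a mean above that of 99.5% of features that passed the filter. AstroEGFR* and PT covered nearly the same range and differed by -0.06 (95% interval -1.36 to 1.23, adjusted p = 0.975), an interval wide enough to hold a change of over 2-fold either way. Batch 2 went from 1069 FPKM in AstroEGFR*2 to 315 FPKM in PT2 and to 222 FPKM with *Zfp423*, whereas batch 3 went from 449.6 FPKM up to 893 and 825 FPKM. With *Zfp423* the mean difference was -0.85 (SE 0.73, adjusted p = 0.756), lower in 2 of 3 pairs, which are those of the 2 libraries with microglial markers. It was -0.15 without batch 2, -1.71 without batch 3 and 0.10 without both libraries with microglial markers and without the block.

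*Ccnd2*, a D-type cyclin of neural progenitors, was second among the cyclins in all 10 libraries. AstroEGFR* had 376, 66.4 and 186 FPKM, PT had 134, 69.2, 194 and 229 FPKM, and AstroEGFR* Zfp423 had 107, 105 and 113 FPKM. The spread between batches was 5.66-fold in AstroEGFR* and 1.07-fold in AstroEGFR* Zfp423, whose 3 values lay inside the range of AstroEGFR*. The difference was -0.23 (SE 0.64, adjusted p = 0.924) for PT and -0.62 (SE 0.54, adjusted p = 0.759) with *Zfp423*. Without AstroEGFR*1 the first was 0.35, and the second was -0.034 without batch 1 and -1.26 without batch 2. *Ccnd3*, the third and most widely expressed D-type cyclin across tissues, was at 43.6, 25.3 and 46.0 FPKM in AstroEGFR*, 36.8, 14.7, 23.1 and 58.6 FPKM in PT, and 37.2, 33.4 and 17.0 FPKM in AstroEGFR* Zfp423, which is 1.78% to 9.26% of the cyclin sum. Its groups overlapped, and the difference was -0.32 (SE 0.47, adjusted p = 0.835) for PT and -0.41 (SE 0.41, adjusted p = 0.791) with *Zfp423*. The first became -0.0076 without PT2 and the second 0.082 without batch 3. Exons of *Ccnd1* and *Ccnd3* overlap *LTO1* and *Bysl* on the opposite strand over 1100 and 361 bases in GENCODE M21, and exons of *Ccnd2* overlap the antisense genes *Gm43126* and *9330179D12Rik* over 372 and 368 bases. Those of *Cdkn1a* overlap *AC167363.2* over 273 bases and those of *Cdkn1c* overlap *Gm44732* over 625 bases, both on the opposite strand. A processed pseudogene, *Ccnd3-ps*, matches *Ccnd3* over 881 bases at 96.3% identity, so reads from these stretches may be shared where the counting ignored strand or copies.

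**Figure D4:**
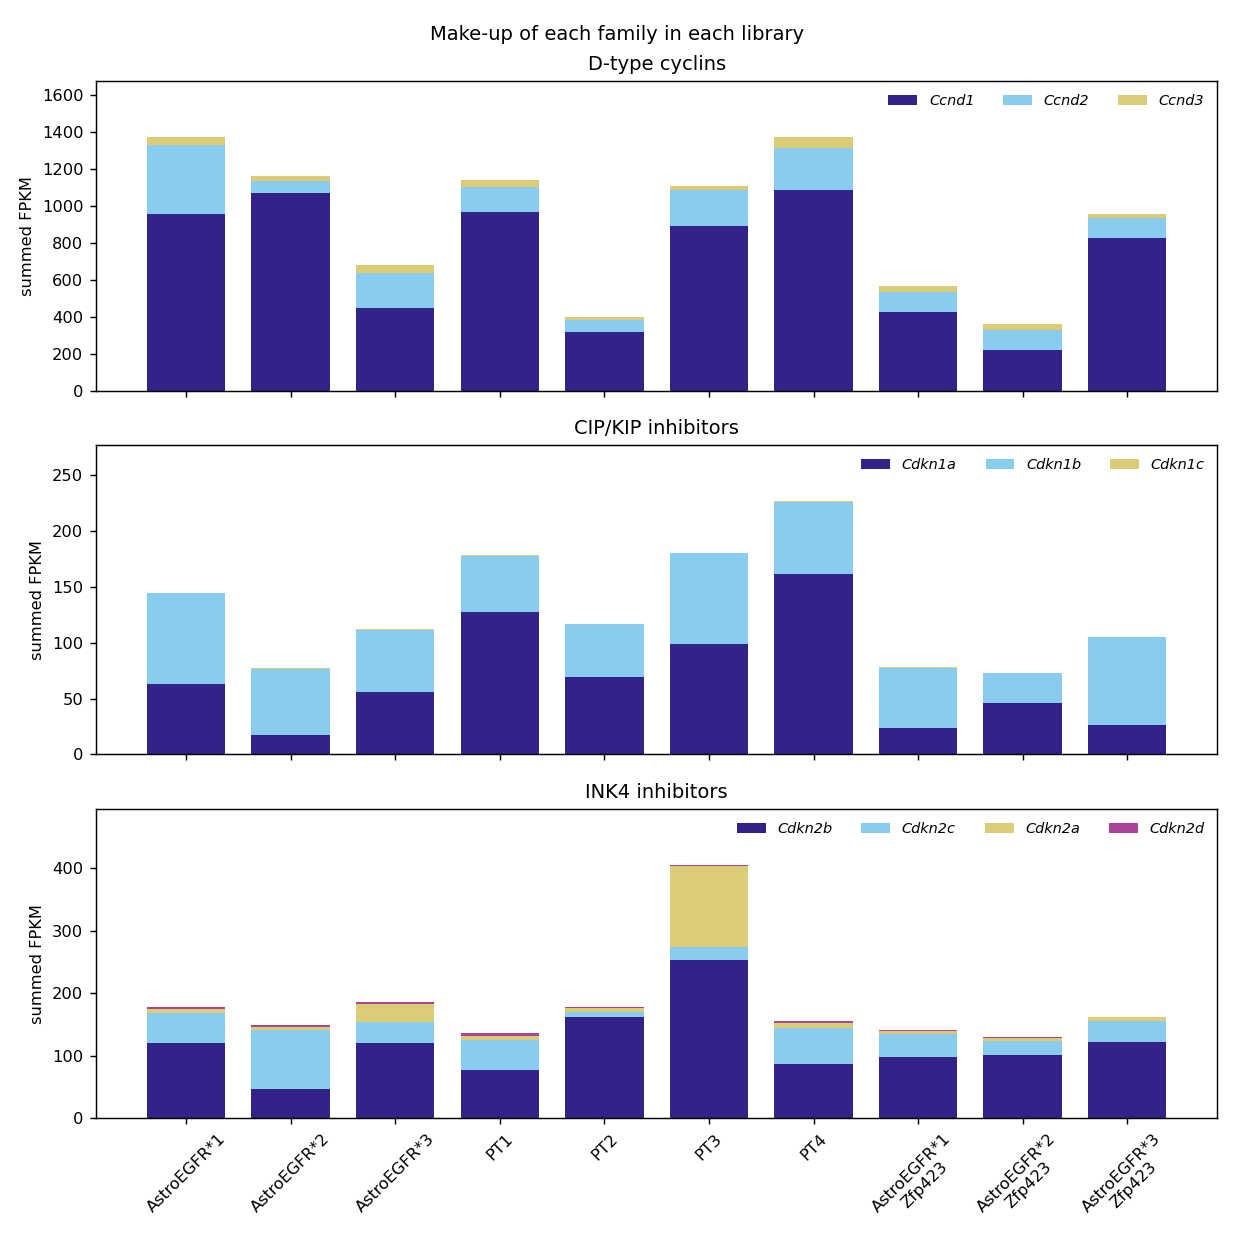
Summed FPKM of the D-type cyclins, CIP/KIP and INK4 inhibitors in each library, with each gene as a segment of the bar. *Ccnd1* fills 61.6% to 92.1% of the cyclin bar, *Cdkn1a* 55.0% to 71.7% of the CIP/KIP bar in PT, and *Cdkn2a* is 32.0% of the INK4 bar in PT3.

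The 4 PT libraries were not alike, and several members split them into PT1 and PT4, which share batch 1, and PT2 and PT3. PT1 and PT4 were higher in *Cdkn2c* (47.6 and 57.03 against 7.65 and 21.2 FPKM), in *Cdkn2d* and in *Ccnd3*. They were also higher in *Ccnd1* (968 and 1085 against 315 and 893 FPKM) and in *Cdkn1a* (128 and 162 against 69.1 and 99.2 FPKM), and lower in *Cdkn2b*. The 23 S-phase and mitotic genes were split in the same way. Against their own AstroEGFR*, 23 of 23 were higher in PT1 and 20 of 23 in PT4, with median log2 differences of 0.74 and 0.26, while 23 of 23 were lower in PT2 and in PT3, with medians of -3.82 and -1.37. The median over all features was between -0.01 and 0.04 in these 4 pairs. Markers of the oligodendrocyte lineage summed to 1357 and 1689 FPKM in PT1 and PT4 and to 145 and 131 FPKM in PT2 and PT3, and neural progenitor markers to 2975 and 3164 FPKM against 762 and 356 FPKM. The share of small RNAs and histone genes in the FPKM sum ran with this split as well, at 0.469% and 0.69% in PT1 and PT4 against 34.2% and 6.08% in PT2 and PT3, and its part was not tested. The split was noticed in the values, rests on 2 against 2 libraries with batch and libraries confounded, and was not tested. *Cdkn2a*, *Cdkn1b*, *Cdkn1c* and *Ccnd2* did not show it, and the share of all features that did was not counted.

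Over all 10 libraries, the summed FPKM of the 23 S-phase and mitotic genes was 914, 1989.9 and 856 in AstroEGFR*, 1557, 141, 306 and 1129 in PT, and 842, 1114 and 467 in AstroEGFR* Zfp423. *Cdkn2c* and *Cdkn2d* were both highest in AstroEGFR*2, where this sum was highest, and both lowest in PT2, where it was lowest. AstroEGFR*2 Zfp423 went against this order, with the 4th highest sum but the third lowest *Cdkn2c* (23.6 FPKM) and the second lowest *Cdkn2d* (1.21 FPKM). *Cdkn1a* was lowest in AstroEGFR*2, but PT2, with the lowest sum, stood 4th of 10 in *Cdkn1a*, behind PT4, PT1 and PT3. The libraries share batches, and no test was made of these orders.

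**Figure D5:**
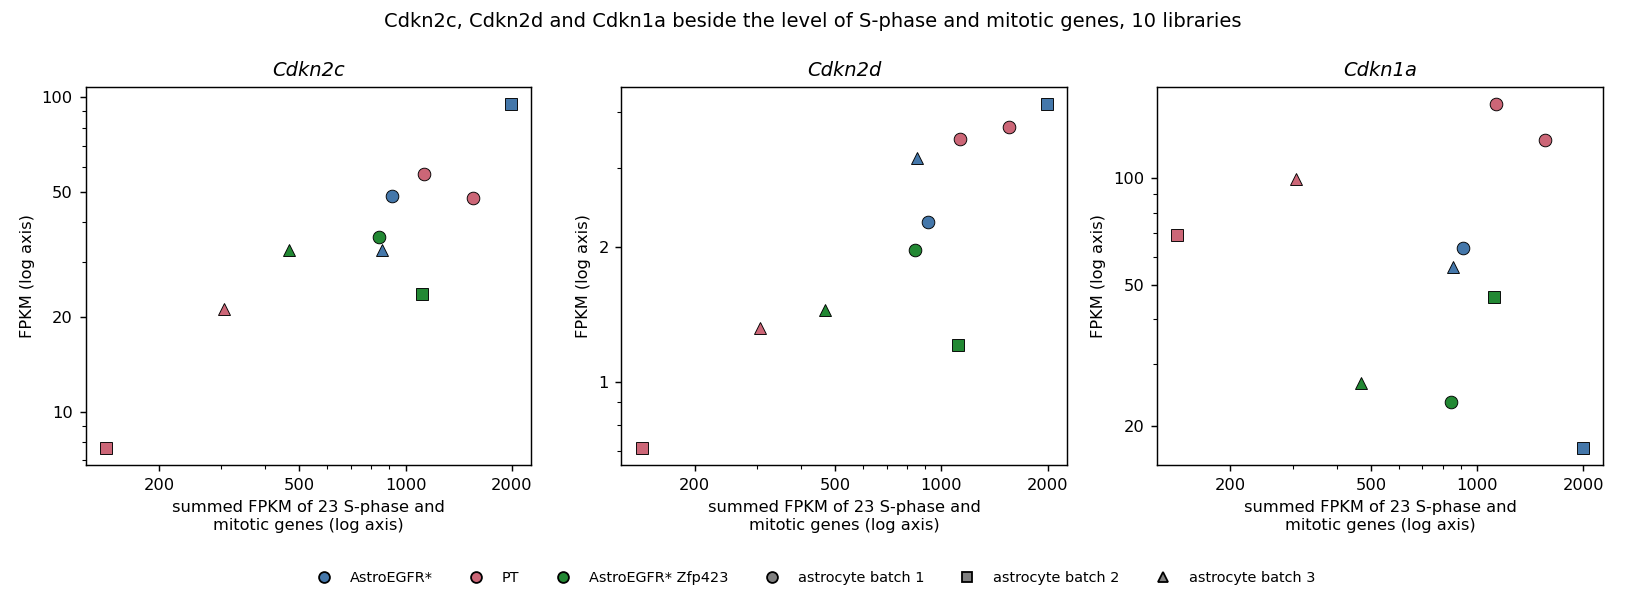
FPKM of *Cdkn2c*, *Cdkn2d* and *Cdkn1a* (log axis) beside the summed FPKM of 23 S-phase and mitotic genes (log axis) in the 10 libraries, where colour gives the group and shape the astrocyte batch. For *Cdkn2c* and *Cdkn2d* the library with the highest sum, AstroEGFR*2 at 1989.9, and that with the lowest, PT2 at 141, hold the highest and the lowest value, whereas AstroEGFR*2 Zfp423 at 1114 lies near the bottom of both genes.

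The other genes of the pathway were taken as lists. Between PT and AstroEGFR* no gene of any list passed the adjusted threshold. The largest shift of a list was that of the fibroblast or meningeal markers, of which 8 of 8 had a lower mean in PT (median log2 difference -3.10, 5 lower at an unadjusted p below 0.05). All 23 S-phase and mitotic genes had a lower mean in PT (median log2 difference -1.23, against 0.03 over all features, 0 of 23 at an unadjusted p below 0.05), although 23 and 20 of the 23 were higher in PT1 and PT4 than in their own AstroEGFR*. Of 18 G1 kinases, cyclin E genes, pocket proteins and E2F genes 15 had a lower mean in PT (median -0.51, 2 lower at an unadjusted p). Of 10 targets of p53 other than *Cdkn1a*, among them *Mdm2*, *Ccng1* and *Bax*, 8 had a higher mean in PT, but with a median difference of only 0.18 and 1 at an unadjusted p. Within batches 5 or 6 of the 10 were higher in each PT library. Of 10 transcriptional regulators of the members, such as *Myc*, *Foxo1*, *Bmi1* and *Ezh2*, 6 had a higher mean in PT (median 0.12, 1 higher and 1 lower at an unadjusted p).

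With *Zfp423* the lists again held no call. All 23 S-phase and mitotic genes had a lower mean than in AstroEGFR* (median -0.56 against 0.02 over all features, with 6 of 23 at an unadjusted p below 0.05), lower in 15, 23 and 23 of 23 in batches 1, 2 and 3. Small RNAs and histone genes made up 35.5% to 54.8% of the FPKM sum in the 3 AstroEGFR* Zfp423 libraries, above the 0.316% to 29.6% of all 3 AstroEGFR* libraries, and their part in any difference with *Zfp423* was not tested. Of the 18 G1 genes 16 had a lower mean (median -0.31, 3 lower and 1 higher at an unadjusted p), of the 10 regulators 5 of 9 tested (median -0.11) and of the 10 targets of p53 only 3 (median difference 0.23). Astrocyte markers had a lower mean in 9 of 9 (median -1.73, 3 at an unadjusted p) and neural progenitor markers in 7 of 7 (median -1.44, 2 at an unadjusted p). Both sums were lower with *Zfp423* in batches 1 and 2. In batch 3 progenitor markers instead summed to 625 FPKM in AstroEGFR*3 and 2212 FPKM in AstroEGFR*3 Zfp423, and astrocyte markers to 1124 and 1020 FPKM. In the 2 libraries with microglial markers fibroblast or meningeal markers also summed to 4879.6 and 7134 FPKM, while AstroEGFR*3 Zfp423 had 360 FPKM and AstroEGFR*3 6213 FPKM, and the part of any of these cell types in the values with *Zfp423* was not tested. Without both libraries, which leaves 1 AstroEGFR* Zfp423 library and no block, 0 of 9 members were called.

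For the 3 members with the widest range of log2(FPKM + 1) over the 10 libraries, the features with the most similar pattern were found by Pearson's r of log2(FPKM + 1) over 10 libraries. For *Cdkn2a* these were *Rab5a* (r = 0.973), *Cml5* (0.959) and *Hibadh* (0.958), with r of 0.92, 0.89 and 0.936 when PT3 was left out. For *Cdkn2c* they were *D2Ertd750e* (0.969), *Ephb2* (0.951) and *Gmeb1* (0.949), and for *Cdkn1a* they were *Rab40c* (0.965), *Pgrmc2* (0.961) and *Arf1* (0.956), which is the small GTPase gene and not the p19 product of *Cdkn2a*. These are the highest values of r over all features that passed the filter, between libraries that share batches and describe the pattern only.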

How the data were processed

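The 10 mouse RNAseq libraries comprised 3 AstroEGFR*, 4 PT and 3 AstroEGFR* Zfp423 cultures. The authors deposited 1 matrix of FPKM values for 23230 features named by gene symbol, and the submitters' processing notes name TopHat 1.3, Cuffnorm and mm9. The labels give a TruSeq RNA kit, whereas the study's methods state ribosomal depletion and a stranded protocol. FPKM hold no counts, so depth and counting error are unknown and the count of libraries limits the precision. The authors' tests with CuffDiff were not used here.

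Values were taken as log2(FPKM + 1). Features averaging 1 FPKM or more in the libraries compared were fitted with limma 3.58.1 in R 4.3.3 (moderated test with a mean-variance trend), Benjamini-Hochberg adjustment ran over all features, and the threshold was 0.05. AstroEGFR* Zfp423 was compared with AstroEGFR* with the astrocyte batch as a block, and PT without it. The main fits of PT thus ignored the batch and counted PT1 and PT4 of batch 1 as separate libraries. The block was run for PT as an alternative. The pairing follows from the culture of origin. The labels number it for the astrocytes, while for PT it was taken from a figure of the paper, as the labels do not give it. Deviations from the group means correlated at 0.346 to 0.499 between PT and AstroEGFR* of 1 batch, against -0.34 to -0.0914 between batches. For AstroEGFR* with and without *Zfp423* the values were -0.262 to 0.241 within a batch and -0.232 to 0.308 between batches. Own-batch pairs thus did not stand apart there, and that pairing rests on the labels alone. For PT and AstroEGFR* Zfp423 they were -0.0089 to 0.194 within a batch and -0.18 to 0.128 between batches. Single genes were also tested by exact two-sided permutation of the libraries and, with *Zfp423*, by exact sign change within pairs. The fit was tested on simulated data.

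The 10 genes, the pathway lists and the marker lists were chosen with earlier results of these data known. Named were the 10 genes and *Zfp423*, of each list and comparison up to 3 genes with an adjusted p below 0.05 (none passed), and for the 3 members with the widest range the 3 features of highest Pearson's r. List members given as examples, and *Gapdh*, *Olig2* and *Aldh1l1*, were named outside this rule. Alternatives were another pseudocount (0.1), no filter, median-ratio scaling, no trend, all 10 libraries in 1 fit, the block, PT1 and PT4 averaged, each library left out and, chosen after seeing the data, both libraries with microglial markers left out. Promoter windows came from RefSeq (GRCm38.p6) and overlaps and copies from GENCODE M21 with BLAST 2.17.0. Gene positions in mm9 are not given. Python 3.11.15 and matplotlib 3.10.9 drew the figures.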

Additional observations from a re-analysis of the deposited data

Results flagged for a closer look

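Each of the 10 genes was examined among the 4 PT libraries on the log2(FPKM + 1) scale for a library far from the other 3, by Dixon's ratio of the gap to the range. For *Cdkn2a*, PT3 at 129.7 FPKM stood apart from the other 3, which had 7.34 to 9.01 FPKM (ratio 0.933, past the critical value for 4 samples). For *Ccnd1*, PT2 at 315 FPKM stood below the other 3, which had 893 to 1085 FPKM (ratio 0.842). Chance flags about 1 in 20 groups of 4 independent libraries, whereas PT1 and PT4 share batch 1. Both flagged libraries are the single PT library of their batch.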

How the results depend on the processing

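The count of members called, 0 of 9 in every comparison, was the same under all alternatives except 1: without PT2, 1 member (*Cdkn1a*) was called between PT and AstroEGFR* Zfp423 (0 to 1 with 1 library left out). Its difference from AstroEGFR* kept its sign throughout, at 0.86 to 1.77.

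Counts of all features moved more. Between PT and AstroEGFR*, 152 became 62 in 1 fit of all 10 libraries, 475 with the replicate block, 59 with PT1 and PT4 averaged and 7 (without AstroEGFR*1) to 123 with 1 library left out. With *Zfp423*, 0 became 2 without the replicate block, 12 without both libraries with microglial markers and without the block, and 0 to 60 (without AstroEGFR*2 Zfp423) with 1 left out. Between PT and AstroEGFR* Zfp423, 2 became 0 with the pseudocount of 0.1, without the filter or with PT1 and PT4 averaged, 28 in 1 fit, 20 with the replicate block, 7 without both microglial libraries and 0 to 629 (without AstroEGFR*3 Zfp423) with 1 left out.

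Of the members' differences, 119 of 126, 109 of 117 and 124 of 135 kept their sign and side of the threshold in the 3 comparisons. The others changed sign, apart from *Cdkn1a* without PT2. With 1 library left out, differences in PT against AstroEGFR* ran from -0.25 to 1.48 for *Cdkn2a*, -0.26 to 0.053 for *Cdkn1b*, -0.45 to 0.34 for *Ccnd1* and -0.89 to 0.35 for *Ccnd2*. With *Zfp423* they ran from -1.23 to 0.16 for *Cdkn1a*, -0.13 to 0.56 for *Cdkn2b* and -0.81 to 0.082 for *Ccnd3*. In PT against AstroEGFR* Zfp423 they ran from -0.050 to 0.52 for *Cdkn2b*, -0.57 to 0.34 for *Cdkn2c*, -0.14 to 0.62 for *Cdkn1b* and -0.25 to 0.40 for *Ccnd3*, the last also -0.086 with the replicate block and -0.12 with PT1 and PT4 averaged. Without both microglial libraries *Cdkn1b* and *Ccnd1* turned to 0.28 and 0.10 with *Zfp423* and to -0.40 and -0.16 in PT against AstroEGFR* Zfp423. The causes were not tested. Where 1 library was left of a group, it was assumed to vary like the others, and without 1 library of a pair its partner adds nothing under the block. With 3 or 4 libraries a group and unknown depth, the absence of a call does not exclude changes as large as the intervals given allow.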

Other observations

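The lists of genes that act on the members' proteins gave the following values. Of 11 genes of inhibitor turnover, such as *Skp2*, *Cks1b* and *Cul4a*, which serve the ubiquitin ligases for p21, p27 and p57, 8 had a lower mean in PT than in AstroEGFR* (median log2 difference -0.20) and 4 a lower mean with *Zfp423* (median 0.16). Of 7 genes of D-type cyclin turnover, among them *Ambra1*, *Fbxo4* and *Gsk3b*, 5 had a higher mean in PT (median 0.13) and 3 with *Zfp423* (median -0.01). None passed the adjusted threshold, and at an unadjusted p below 0.05 stood 0 of 11 and 1 of 7 genes in PT and 1 of 11 and 0 of 7 genes with *Zfp423*.

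In the comparison of PT with AstroEGFR* Zfp423, 21 of the 23 S-phase and mitotic genes, 11 of the 18 G1 genes, 6 of the 10 targets of p53 and 1 of the 10 regulators had a lower mean in PT, and no gene passed the adjusted threshold. Of the cell type markers, 9 of 9 microglial (median log2 difference -3.52, 8 at an unadjusted p below 0.05) and 7 of 7 tested fibroblast or meningeal markers (median -3.06, 2 at an unadjusted p) had a lower mean in PT. A higher mean in PT was found for 7 of 7 neural progenitor markers (median 1.57, 3 at an unadjusted p), 7 of 9 astrocyte markers (median 1.27, 2 at an unadjusted p), 5 of 7 oligodendrocyte lineage markers (median 0.98, 2 at an unadjusted p) and 2 of 2 neuronal markers (median 1.09), and the 1 endothelial marker tested was lower (-0.35). Endothelial markers summed to 0.426 to 14.5 FPKM over the 10 libraries and neuronal markers to 6.30 to 109 FPKM.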
